A study of Homo sapiens with 2 samples.

Results

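The genes described here are 9 readers and writers of DNA methylation in human cells, chosen by name as the rows of the deposited tables that carry the symbols MBD1, MBD2, MBD3, MBD4, ZBTB33, DNMT1, DNMT3A, DNMT3B and UHRF1. They are 9 of the 56638 genes in the tables, and all 9 had enough reads to be compared. RNA was sequenced from TFK1, an established cholangiocarcinoma (bile duct cancer) line, given either a negative control shRNA (T-shNC) or a shRNA that lowers MBD2 (T-shMBD2), with 1 library per condition and no further treatment. Both libraries therefore come from a lentivirally transduced, drug-selected cell population of a single line, the labels do not name the hairpin in T-shMBD2, and the comparison asks whether other readers of methylated DNA differ when MBD2 is lowered.

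DNA methyltransferases add a methyl group to cytosine in CpG dinucleotides. DNMT3A and DNMT3B set new marks, whereas DNMT1 copies marks onto the daughter strand after replication, guided by UHRF1, which recognizes CpGs methylated on only one strand. Readers then recognize the mark. MBD1, MBD2 and MBD4 do so through a methyl-CpG-binding domain, and ZBTB33 (Kaiso) does so through zinc fingers. MBD3 carries a related domain that has largely lost the preference for methylated CpG. MBD2 and MBD3 are alternative subunits of the NuRD co-repressor, and MBD4 is also a DNA glycosylase that removes thymine from G:T mismatches.

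The study lists hairpins against 2 sites in MBD2, and both 21-base target sequences are shown because they define what was lowered. The capitals mark the 7 bases that face bases 2 to 8 of the guide strand, its seed.
MBD2-sh1: gaaatgtagcactTACGTAAa
MBD2-sh2: gtacgcaagaaatTGGAAGAa
In GENCODE 29 (GRCh38), the first lies on the minus strand at chr18:54155016-54155036, in the 3' UTR within exon 7 of the 7 exons of the long MBD2 transcript. The second lies at chr18:54159858-54159878, in coding exon 6 of the same transcript. Neither sequence was found in a transcript of any other gene. Within the other 8 genes the best alignment left at least 6 mismatches for the first target and at least 7 for the second, and in MBD3, the closest relative of MBD2, it left 9 and 8. The 7 capital letters of the first target also occur in the longest coding transcript of DNMT1 and in none of the other 7, against 3.17% of 19669 protein-coding genes. Those of the second occur in MBD1, ZBTB33, DNMT3A and DNMT3B, and in 45% of genes.

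The counts summed to 14728814 in T-shMBD2 and 14467406 in T-shNC. Biliary epithelial markers were present in both libraries, with KRT7 at 1327 TPM and KRT8 at 3890 TPM in T-shNC, whereas KRT19 was at only 9.04 TPM. Markers of hepatocytes, leukocytes, fibroblasts and endothelium had at most 6 counts each in either library. With a single library on each side, the spread between cultures is unknown, no p-value is given, and the 95% intervals cover counting error only. Log2FC is T-shMBD2 over T-shNC after TMM scaling, a factor per library that assumes most genes are alike, with a prior of 0.5 counts added, and 17545 genes whose counts in both libraries added up to 10 or more were compared.

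MBD2, the targeted gene and the check of the labels, was the one gene of the 9 that differed by more than 2-fold. It had 1013 counts in T-shNC and 365 in T-shMBD2, or 44.6 and 15.6 TPM. The knockdown library thus held 35.8% of the control level, a log2FC of -1.48 (interval -1.66 to -1.31). Across all 17545 genes, 5.07% (890 genes) lay below -1 and 5.48% (961 genes) above 1, of which 127 and 213 had at least 100 counts summed. All 9 readers and writers had between 783 and 4746 counts summed over both libraries. Among the 7279 genes with 500 to 5000 counts, a range set after these sums were known, 0.495% lay below -1 and 1.06% above 1. MBD2 was among the 11 genes of that range with a log2FC of -1.48 or lower. A sequenced pool cannot tell a lower level in every cell from a loss in part of the cells.

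**Figure D1:**
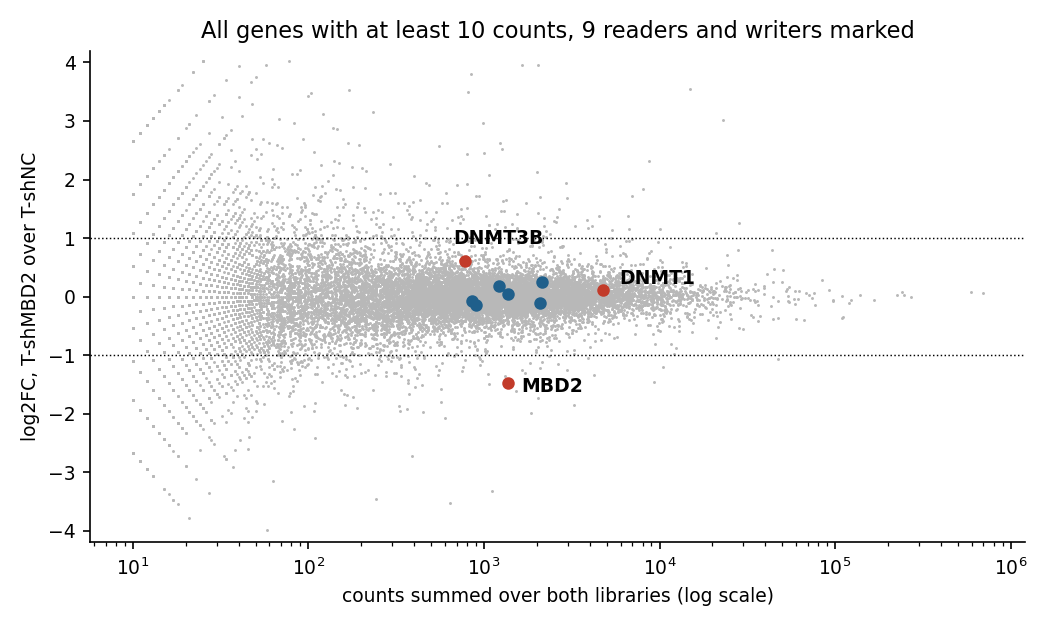
Each gray point is 1 of the 17545 genes compared; the x axis is the count summed over both libraries (log scale) and the y axis the log2FC, with dotted lines at -1 and 1. MBD2 stands at -1.48 below its neighbors, whereas the other 8 colored points lie inside the lines, and 73 genes lie outside the plotted range.

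None of the other 8 genes passed a log2FC of 1 or -1, and they ranged from -0.14 for MBD3 to 0.61 for DNMT3B. Their median log2FC was 0.080, against -0.0082 over all genes tested. Of the 8, 5 were higher and 3 lower in T-shMBD2. The counting interval lay wholly above 0 for DNMT3B, UHRF1, MBD1 and DNMT1 and held 0 for MBD3, MBD4, ZBTB33 and DNMT3A. None of these 8 intervals lay below 0. An interval above 0 was common, with 19.7% of all genes and 25.5% of the genes with 500 to 5000 counts, and an interval below 0 was found for 18.4% and 23.7%. On the scale of the deposited TPM every log2FC shifts by -0.028, and the interval of MBD1 would then hold 0. Under TMM scaling, whose own error the intervals leave out, the other 3 intervals show that the libraries differed by more than read sampling. They do not show a difference between the conditions, and that of DNMT1 started at 0.034, little above the size of the TPM shift.

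**Figure D2:**
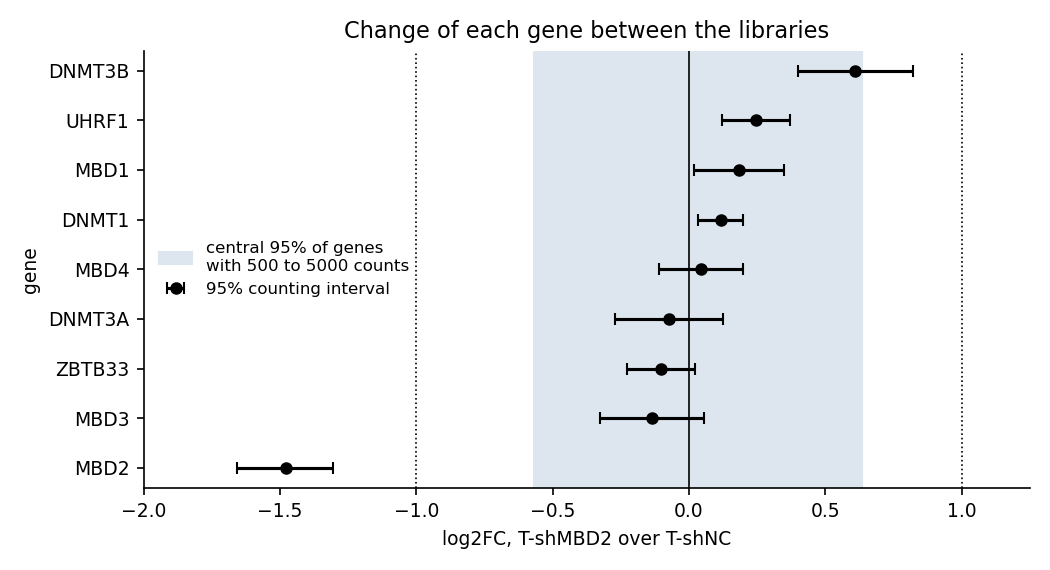
Log2FC of each gene (x axis) with its 95% counting interval as a bar, sorted from lowest to highest; the shaded area holds the central 95% of genes with 500 to 5000 counts, from -0.57 to 0.63. Of the 9 genes, MBD2 lies outside the shaded area, and DNMT3B, at 0.61, lies near its upper edge.

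Among the other readers with a methyl-CpG-binding domain, no member was higher by as much as MBD2 was lower. MBD1, which represses methylated promoters, had 566 counts in T-shNC and 647 in T-shMBD2 (20.7 and 23.1 TPM), with a log2FC of 0.18 (interval 0.019 to 0.35, which does not clear 0 on the scale of the TPM). MBD4, the glycosylase, had 674 and 699 counts (48.8 and 49.3 TPM). A log2FC of 0.044 (interval -0.11 to 0.20) put its levels within counting error of each other. MBD3, which takes the place of MBD2 in the other form of NuRD, had 472 counts in T-shNC and 432 in T-shMBD2 (30.4 and 27.2 TPM). Its log2FC was -0.14 (interval -0.33 to 0.055), within counting error of 0. Because the interval covers counting error only, it sets no bound on a change of MBD3 between the conditions. The tables place UQCR11 over MBD3 on the same strand, and UQCR11 had 678 and 785 counts (log2FC 0.20). How reads shared by both genes were counted is not given in the sources used here.

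The order of the alternative NuRD subunits differed between the libraries. MBD2 is the targeted gene and the interval of MBD3 held 0, so this difference mainly restates the lower level of MBD2. MBD2 stood at 1.46 times the TPM of MBD3 in T-shNC and at 0.576 times in T-shMBD2. A ratio within a library needs no scaling factor, and this ratio was 2.54-fold lower in T-shMBD2. On the log2 scale its change was -1.34 (exact conditional interval -1.61 to -1.08). Summed over MBD1 to MBD4, the readers reached 145 TPM in T-shNC and 115 TPM in T-shMBD2, and MBD2 made up 30.8% and 13.6% of these sums.

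ZBTB33 (Kaiso), the zinc finger reader, had 1078 counts in T-shNC and 1011 in T-shMBD2, or 37.1 and 33.9 TPM. The resulting log2FC of -0.10 was within counting error of 0 (interval -0.23 to 0.024). UHRF1, which brings DNMT1 to newly replicated DNA, had 977 and 1165 counts, or 40.7 TPM in T-shNC and 47.3 TPM in T-shMBD2. Its log2FC was 0.24 (interval 0.12 to 0.37). Of the genes with 500 to 5000 counts, 29.7% had a log2FC at least this far from 0 in either direction.

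Among the writers, DNMT3B differed most. It had 309 counts in T-shNC and 474 in T-shMBD2, or 12.8 and 19.1 TPM, which is 1.52-fold higher in T-shMBD2. The log2FC was 0.61 (interval 0.40 to 0.82). In the range of 500 to 5000 counts, 202 genes were as high or higher, and 4.90% were at least as far from 0 in either direction. DNMT3A, the other de novo enzyme, had 437 counts in T-shNC and 418 in T-shMBD2 (17.5 and 16.3 TPM), a log2FC of -0.073 (interval -0.27 to 0.12). DNMT1, the maintenance enzyme, had 2270 and 2476 counts (75.3 and 80.1 TPM). Its log2FC of 0.12 was small, and its interval, from 0.034 to 0.20, was narrow because it had the most reads of the 9. S1PR2, placed over DNMT1 on the same strand, had 9 and 16 counts, a small number beside those of DNMT1.

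The order of the de novo enzymes differed between the libraries. The TPM of DNMT3B was 0.730 times that of DNMT3A in T-shNC, where the counting intervals of their levels did not overlap. It was 1.17 times in T-shMBD2, where these intervals overlapped, which is not a test of the difference. The ratio of DNMT3B to DNMT3A was 1.60-fold higher in T-shMBD2, with an exact conditional interval from 1.31 to 1.96. Relative to DNMT1, DNMT3B was 1.41-fold higher (interval 1.20 to 1.65). The ratio of UHRF1 to DNMT1 was 0.540 in T-shNC and 0.591 in T-shMBD2, and the interval of its log2 change, from -0.021 to 0.28, held 0. Over DNMT1, DNMT3A and DNMT3B the summed level was 106 TPM in T-shNC and 116 TPM in T-shMBD2, of which DNMT3B made up 12.1% and 16.6%.

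Levels of different genes were compared per length, in TPM with the exact Poisson interval of the count. In T-shNC the order was DNMT1, MBD4, MBD2, UHRF1, ZBTB33, MBD3, MBD1, DNMT3A and DNMT3B. The intervals of neighbors overlapped from MBD4 through MBD2 and UHRF1 to ZBTB33, and between MBD1 and DNMT3A. Overlap of separate intervals is not a test of the difference between neighbors, so it leaves the order of those places undecided. In T-shMBD2 the order was DNMT1, MBD4, UHRF1, ZBTB33, MBD3, MBD1, DNMT3B, DNMT3A and MBD2. MBD2 moved from position 3 to position 9, where its interval of 14.1 to 17.3 TPM overlapped that of DNMT3A, from 14.8 to 18.0 TPM. In T-shMBD2 the intervals of neighbors also overlapped between MBD4 and UHRF1, between MBD3 and MBD1, and between DNMT3B and DNMT3A. DNMT1 held the first place in both libraries and did not overlap the next gene in either. Together the 9 genes summed to 328 TPM in T-shNC and 312 TPM in T-shMBD2. The other 8 genes summed to 283 and 296 TPM.

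**Figure D3:**
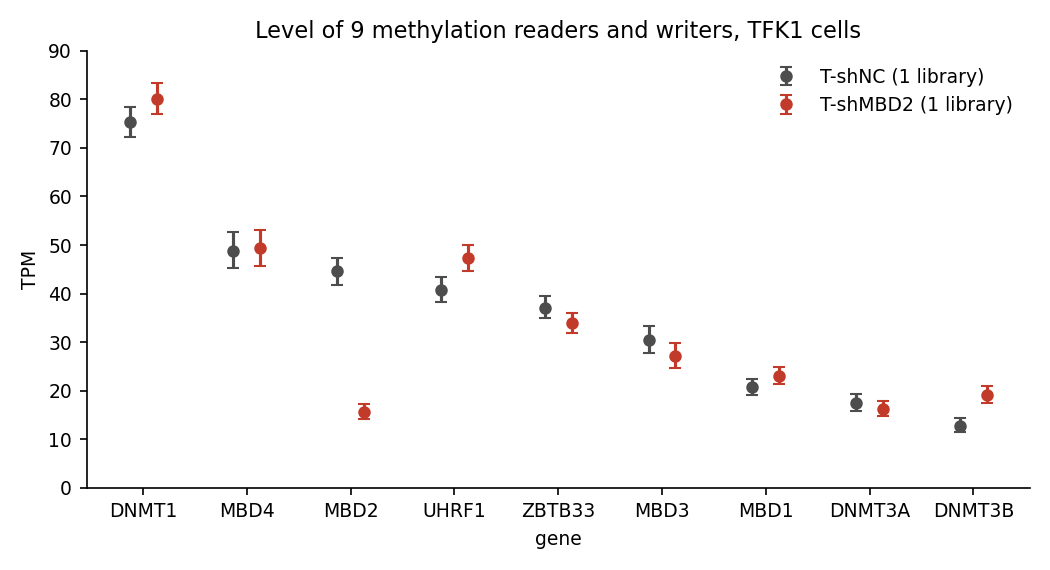
TPM of each gene (y axis) in T-shNC (gray) and T-shMBD2 (red), 1 library each, ordered by the level in T-shNC; bars are exact 95% Poisson intervals of the count. MBD2 stands at 44.6 TPM in T-shNC and 15.6 TPM in T-shMBD2, whereas among the other 8 genes the pair of points farthest apart as a ratio is that of DNMT3B, at 12.8 and 19.1 TPM.

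MBD2, the targeted gene, was lower relative to each of the other 8 genes, which mainly restates its own lower level. In T-shNC its TPM exceeded that of 6 of them, all but DNMT1 and MBD4, and in T-shMBD2 it exceeded none. The ratio was between 2.54-fold (against MBD3) and 4.25-fold (against DNMT3B) lower in T-shMBD2.

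**Figure D4:**
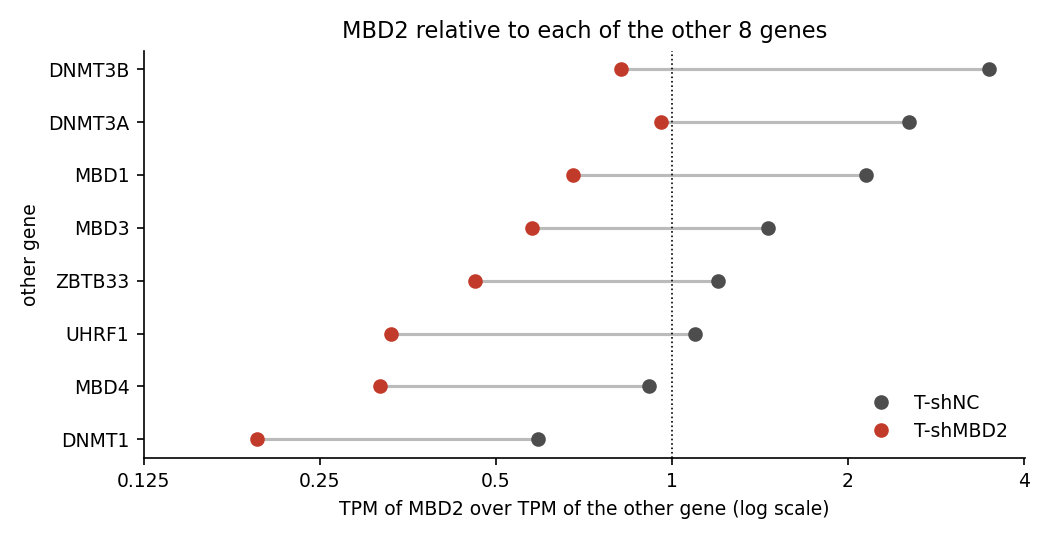
TPM of MBD2 divided by the TPM of each other gene (x axis, log scale) in T-shNC (gray) and T-shMBD2 (red). The dotted line marks equal levels, which 6 of the 8 ratios cross, among them that to MBD3, from 1.46 to 0.576.

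Relatives of these readers outside the 9 were described from lists drawn up for this comparison. Of 13 further proteins, 8 were listed as relatives of proteins with a methyl-CpG-binding-domain fold and 5 as other readers of methylated DNA. As for MBD3, the fold alone does not make a protein a reader of methylated CpG. Of the 13, 10 had at least 10 counts, 6 with the fold and 4 other readers, and none passed a log2FC of 1 or -1. Of these 10, 8 were lower and 2 higher in T-shMBD2, with values from -0.29 to 0.085 and a median of -0.15. The median was -0.13 for the 6 with the fold and -0.17 for the 4 other readers. The counting interval lay below 0 for 5 and above 0 for 1, beside 18.4% and 19.7% of all genes. MBD5 was at -0.29 (237 and 195 counts) and BAZ2B, a bromodomain protein, at -0.21. UHRF2, the relative of UHRF1, was at -0.20 (interval -0.32 to -0.080), and ZNF445, which guards imprinted methylation, at -0.29. ZBTB38 was the one with its interval above 0, at 0.085. MBD3L1 and MBD3L2 had no counts in either library, and ZFP57 had 8 counts in T-shMBD2 and none in T-shNC. The value for ZBTB38 is given after it was seen.

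Proteins with a CXXC zinc finger bind unmethylated CpG. All 8 listed were measured, with a median log2FC of 0.10, and 1 of them passed -1, beside 5.07% of all genes compared. CXXC4, an inhibitor of Wnt signaling, had 131 counts in T-shNC and 51 in T-shMBD2 (4.22 and 1.60 TPM), a log2FC of -1.36 (interval -1.87 to -0.89). CXXC1, next to MBD1 on the same strand, had 290 and 328 counts and a log2FC of 0.17, close to the 0.18 of MBD1. FBXL19, named after its value was seen, was at 0.61 (402 and 618 counts, interval 0.43 to 0.80).

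Among the erasers of methylation, the 8 genes of oxidation and base excision had a median log2FC of 0.048, with 4 higher and 4 lower in T-shMBD2, and none passed 1 or -1. Over all genes compared, 19.7% had a counting interval above 0 and 18.4% one below 0. Here the interval lay above 0 for 2 of the 8 genes and below 0 for none. These were TDG, which excises oxidized methylcytosine, at 0.22 (903 counts in T-shNC and 1055 in T-shMBD2, interval 0.086 to 0.35), and APEX1, an abasic-site endonuclease named after its value was seen, at 0.12 (interval 0.048 to 0.19). XRCC1, a repair scaffold, was at -0.12. The oxidizing enzymes TET1, TET2 and TET3, also named after their values were seen, were at 0.10, -0.076 and -0.0073, with intervals that held 0.

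Partners of the maintenance machinery gave values on both sides of 0. Of 9 listed, 8 were tested, none passed 1 or -1, and the median was -0.047. USP7, which stabilizes UHRF1 and DNMT1, was at 0.27 (2758 and 3336 counts), and DMAP1, a DNMT1-associated co-repressor, at -0.26 (377 and 317 counts). HELLS, a remodeler required for methylation of repeats and named after its value was seen, was at -0.23. DNMT3L, the catalytically inactive partner of the de novo enzymes, had 1 count in each library. DNMT1 and UHRF1 follow DNA replication in cycling cells, so S phase genes are given beside them. The 15 S phase genes had a median log2FC of 0.064, and none passed 1 or -1. CCNE1, the G1/S cyclin, was at 0.70 (374 counts in T-shNC and 612 in T-shMBD2) and CCNE2 at -0.24. The part of the cell cycle in the values of UHRF1 and DNMT1 was not tested.

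In the cycle that supplies the methyl donor, 11 of 13 genes were tested, and the median was -0.042. There, 1 gene passed 1, beside 5.48% of all genes compared. That gene, GNMT (a glycine methyltransferase), had 7 counts in T-shNC and 15 in T-shMBD2, a log2FC of 1.04 whose interval ran from -0.29 to 2.63. Among 13 NuRD subunits other than MBD2 and MBD3, none passed 1 or -1 and the median was 0.027, or -0.0013 with the TPM plus 0.1. The largest values were those of the p66 subunits, with GATAD2A at 0.29 (818 and 1007 counts) and GATAD2B at -0.28 (736 and 610 counts).

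**Figure D5:**
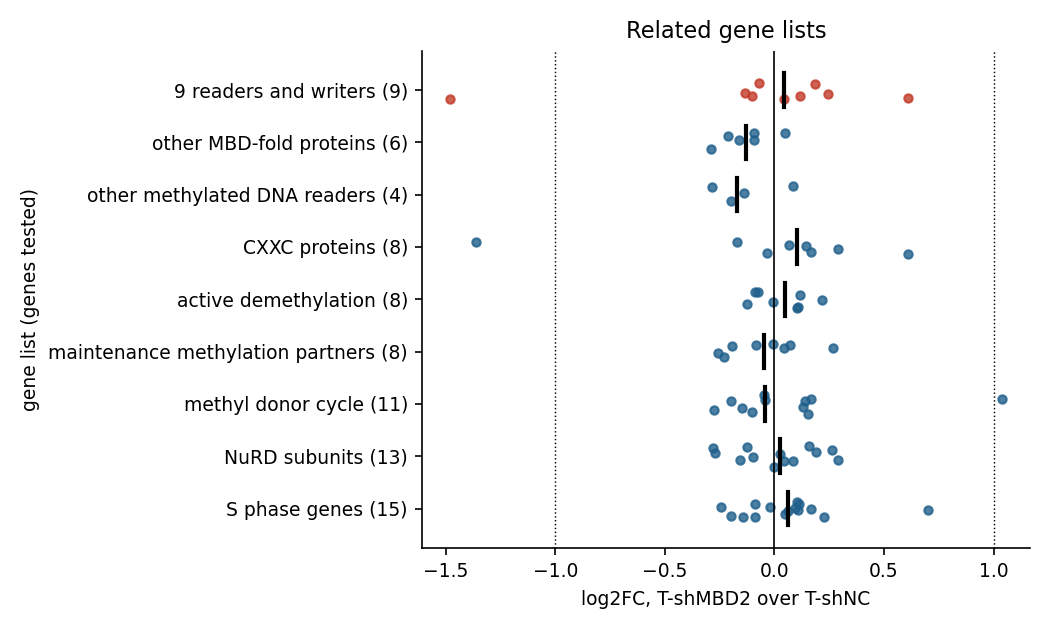
Log2FC (x axis) of every tested gene in the 9 readers and writers (red) and in 8 related lists (blue); each point is a gene, vertical bars are medians and the number tested is in parentheses. Apart from MBD2 at -1.48, the points past -1 or 1 are CXXC4 at -1.36 and GNMT at 1.04.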

How the data were processed

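RNA-seq of 2 TFK1 libraries was analyzed. The authors deposited raw counts of reads for each gene and, in another table, TPM. Per the labels, the submitters' processing notes name fastp, HISAT2 2.1.0, featureCounts, DESeq 1.18.1 and the build GRCh38.p13. The strandedness of counting is not given in the sources used here. The positions in the tables differ from GENCODE 29 (GRCh38) for all 9 genes (0 are equal). MBD1 is placed from 47793252 in the tables and from 50266882 in GENCODE 29, so the tables' positions are not those of the named build. Positions printed here therefore come from GENCODE 29 or RefSeq (GRCh38.p14). Overlaps and distances between genes use the tables' positions.

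From 63677 rows with an Ensembl identifier, 1 row per symbol and value was kept, since repeated symbols repeat their values, leaving 56638 genes. The deposited TPM then summed to 1000000 per library. TMM factors were computed with edgeR 4.0.16 in R 4.3.3, used for scaling and not for testing. Before the log2 ratio was taken, 0.5 counts were added, in proportion to library size. Intervals are Clopper-Pearson (exact) for the read split, exact Poisson intervals of a count, or exact conditional intervals of an odds ratio (scipy 1.17.1). Of these, the Clopper-Pearson interval was tested on simulated counts. The simulation drew read sampling error only, so it does not bear on the spread between cultures. The alternatives were DESeq2 1.42.0 size factors, total counts, upper-quartile factors, prior counts of 0.1 and 2, a pseudocount of 0.1 or 1 on the TPM, and filters of none or at least 100 counts. Keeping all deposited rows was added after seeing the data. The 9 genes and the lists were chosen with earlier results of these data known. The genes named are the 9, genes over or next to them, the 5 genes closest to MBD2 in log2FC, and in each list every gene past 1 or -1 or, failing any, the 2 genes with the largest log2FC in size and at least 100 counts. Exceptions are marked as seen first. Keratins are named as markers of the cell type, and 4 listed genes with under 10 counts (MBD3L1, MBD3L2, ZFP57 and DNMT3L) are named, outside this rule, as too low to compare. One gene of these lists is not reported here and was left out of the list's counts and median. Transcript sequences are from GENCODE 29, promoters from RefSeq, and the hairpin targets from the study's oligo list.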

Additional observations from a re-analysis of the deposited data

How the results depend on the processing

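The log2FC of MBD2 lay between -1.50 and -1.45 over 8 alternatives and stayed below -1 in each. DNMT3B lay between 0.55 and 0.63 and UHRF1 between 0.21 and 0.26. None of the 9 genes took the other sign under any of the 8 alternatives, all of which stayed inside the gene's counting interval. Such small shifts do not set apart from 0 the genes whose interval held 0. The number of the 9 genes past 1 or -1 was the same under each alternative, and so was the number whose interval left out 0 under the other 3 scalings. Over all genes, 961 lay above 1 and 890 below -1. Log2 of TPM plus 1 gave 374 and 340, no filter on low counts gave 4523 and 4303, and at least 100 counts gave 213 and 127. The filters set how many low genes enter, and adding 1 TPM shrinks the log2FC of low genes. The deposited TPM shifted every gene by -0.028 against TMM, on the log2 scale, which exceeds the 0.019 by which the interval of MBD1 cleared 0. The medians near 0 changed sign for NuRD subunits, where 0.027 became -0.0013 or -0.0012 when the TPM were used (pseudocounts of 0.1 and 1), and for the methyl donor cycle, from -0.042 to 0.043 with no filter. The medians of the other 6 lists and of the 8 genes besides MBD2 kept their sign. No paired analysis was possible because there was only a single library on each side. The depth leaves the intervals of the 9 genes less than 0.5 wide on the log2 scale, and differences between cultures could not be measured.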

Other observations

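The promoters of the 9 genes were described from 300-base windows of RefSeq (GRCh38.p14), from 250 bases before to 50 after the listed start. All 9 matched. Counted as the letters CG, which read the same on both strands, 8 of the windows held between 26 and 40 CpGs, against a median of 14 over 27305 promoters. The MBD3 window held the most, with 40, and that of MBD2 held 32. The DNMT3B window, at chr20:32779602-32779901, held 3. For 3 genes the listed start lies well inside the gene as GENCODE 29 places it, by 17467 bases for DNMT3B, 36333 for DNMT1 and 6421 for UHRF1, so these windows are not at the first start. Those of DNMT1 and UHRF1 held 30 and 36 CpGs. For the other 6 genes the listed start was within 231 bases of the first one. Gene counts do not tell which start was used.

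Among the 4703 genes within 2-fold of the TPM of MBD2 in T-shNC, the 5 closest to it in log2FC, a likeness over only 2 libraries, were FGG, NUPR1, UPK1B, GADD45B and SNORA31. FGG, a fibrinogen chain, had 791 counts in T-shNC and 281 in T-shMBD2 (log2FC -1.50). UPK1B, a tetraspanin of the urothelial membrane, had 942 and 368 (log2FC -1.36), and GADD45B, a stress-response gene, had 392 and 155 (log2FC -1.34). NUPR1 was at -1.59 and SNORA31, with 28 and 11 counts, at -1.32.

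Of the genes next to or over MBD2 in the tables, POLI had enough reads to be compared, whereas RP11-116K4.1 (1 count in T-shNC and 5 in T-shMBD2) and SNORA37 (0 in both) did not. POLI, on the other strand, had 496 counts in T-shNC and 457 in T-shMBD2, a log2FC of -0.13 (interval -0.31 to 0.059). IFT122, which starts 90 bases from MBD4 on the other strand, was at -0.087, beside 0.044 for MBD4. Next to DNMT3B, COMMD7 was at 0.054 and MAPRE1 at 0.21 (interval 0.15 to 0.27), both below the 0.61 of DNMT3B. KDM4B, next to UHRF1, was at 0.36. On the sides of MBD3, which was at -0.14, TCF3 was at 0.41 and AC005943.5 at -0.67 (interval -1.19 to -0.18). EIF3G and MRPL4, on the sides of DNMT1, were at 0.29 and 0.25, beside 0.12 for DNMT1.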
